A study of Mus musculus with 7 samples.

Results

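The unfolded protein response chaperones described here are 10 genes taken from a list of names, Hspa5, Hsp90b1, Creld2, Sdf2l1, Manf, Pdia4, Dnajb9, Herpud1, Calr and Ddit3, out of 35498 genes with a listed transcript. They were chosen as genes of folding and stress in the endoplasmic reticulum (ER). All 10 had enough reads to be tested, with 308 to 14516 estimated reads per gene and library. The RNA was from marrow of females, 5 to 6 months of age, with 3 libraries of Aim2 knock-out (KO) and 4 of wild-type (WT) mice. The KO mice are called null for AIM2, a sensor of cytosolic DNA that assembles an inflammasome, and no treatment separates the groups. The labels name neither the strain nor the deleted part of the gene, nor do they state whether every library is a separate animal. The p-values therefore reflect the spread among these libraries, which may be technical.

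The unfolded protein response balances the load of new protein entering the ER against the capacity to fold it. Its sensors are ATF6, IRE1 (the product of Ern1), which splices the mRNA of the transcription factor Xbp1, and PERK (Eif2ak3), which slows translation and favours the factor ATF4. ATF6 and XBP1 act on genes of chaperones and of the degradation of misfolded protein, and ATF4 acts on Ddit3. In marrow, antibody-secreting plasma cells are known for high levels of these genes.

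The libraries held 20300468 to 21099972 estimated reads. Aim2 had 47 to 157 reads in the KO libraries and 533 to 601 in the WT libraries (-2.76 ± 0.38 on the log2 scale, SE; adjusted p = 0.0280 by edgeR's quasi-likelihood test). In TPM, which is scaled for effective length, the gap was smaller, at 5.73 to 10.35 in KO and 16.16 to 19.05 in WT. Defining genes of marrow were present throughout, such as S100a9 of neutrophils at 4949 to 6696 CPM and Mpo of their precursors at 924 to 1779 CPM (CPM is the read count scaled to the library's depth with TMM factors). Haemoglobin genes took 11.3 to 13.7% of reads in KO and 13.8 to 19.9% in WT, highest in WT library 1. Immunoglobulin genes took 1.11 to 1.72% in KO and 0.314 to 0.903% in WT. Skeletal muscle genes stood apart by library. The summed level of 8 of them was 64.2 CPM in KO library 1, 822 CPM in KO library 2 and 6520 CPM in KO library 3, against 1056 to 2282 CPM in WT. Of the lists of mature neutrophil (9 genes), monocyte (9), stroma and bone (8), erythroid (8), neutrophil precursor (7) and skeletal muscle (8) markers 0 genes passed the test, and of 6 tested dendritic cell markers 1, Cd209a, was lower in KO.

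Promoters of the chaperone genes are shown first, since a shared element is the textbook link between them. The ER stress response element (ERSE) is CCAAT, then 9 bases of any kind, then CCACG. Its variant ERSE-II is ATTGG, 1 base of any kind and CCACG. Windows from 250 bases before to 50 after the start of each gene, from RefSeq on GRCm38.p6, were searched on both strands. Only exact matches were counted. They were given for 9 of the 10 genes, and Manf had none. ERSE matched in 4 of these 9 genes, against 0.137% of 27025 genes with a window (37 genes). ERSE-II matched in 1 of the 9, against 0.0444% (12 genes). The core TGACGTGG of the unfolded protein response element matched in 0 of the 9 and in 0.714% of all genes. The octamer TTGCATCA, found in ATF4 and CHOP sites, matched in Herpud1 and in 1.03% of all genes. A match describes letters in this window and shows no binding. The motifs are textbook elements of genes of this kind, so the counts beside all genes are a description and no test of enrichment.

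The upstream sequences of the genes with a match outside annotated exons follow, ending at the first exon or at the gene's start and written on the gene's strand, with capitals marking the matches. That of Ddit3, which had no exact match to these motifs, is also shown. Its stretch cgtgccgctttctgattgg reads as a reversed ERSE with cgtgc in place of CGTGG. Such near matches were not searched for in any gene, so a lack of exact matches does not show that an element is absent. Hsp90b1 lies on the minus strand (chr10:86705510-86705694) and has an ERSE in each orientation. Creld2 lies on the plus strand (chr15:88819396-88819645) and has a reversed ERSE. Calr lies on the minus strand (chr8:84846935-84847181) and also has a reversed ERSE. Herpud1 lies on the plus strand (chr8:94386179-94386428), with TTGCATCA upstream of an ERSE-II. Ddit3 lies on the plus strand (chr10:127290543-127290773).
Hsp90b1: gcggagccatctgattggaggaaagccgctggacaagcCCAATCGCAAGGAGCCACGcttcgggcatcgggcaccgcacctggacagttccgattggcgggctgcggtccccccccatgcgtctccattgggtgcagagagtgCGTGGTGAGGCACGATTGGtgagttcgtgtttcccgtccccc
Creld2: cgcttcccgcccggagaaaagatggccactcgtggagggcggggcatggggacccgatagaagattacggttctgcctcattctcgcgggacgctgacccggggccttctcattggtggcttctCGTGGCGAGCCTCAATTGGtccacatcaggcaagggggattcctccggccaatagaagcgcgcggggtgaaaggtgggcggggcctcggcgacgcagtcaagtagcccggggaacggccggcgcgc
Calr: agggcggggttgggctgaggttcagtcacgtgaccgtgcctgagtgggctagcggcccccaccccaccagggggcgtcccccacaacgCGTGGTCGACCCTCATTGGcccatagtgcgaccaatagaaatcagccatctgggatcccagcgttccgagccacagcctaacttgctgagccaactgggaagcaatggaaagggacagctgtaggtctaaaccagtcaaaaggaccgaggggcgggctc
Herpud1: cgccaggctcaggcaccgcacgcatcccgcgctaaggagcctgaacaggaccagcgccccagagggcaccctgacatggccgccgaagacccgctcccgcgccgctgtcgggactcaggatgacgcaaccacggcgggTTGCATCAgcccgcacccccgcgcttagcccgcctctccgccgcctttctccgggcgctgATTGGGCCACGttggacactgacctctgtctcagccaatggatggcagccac
Ddit3: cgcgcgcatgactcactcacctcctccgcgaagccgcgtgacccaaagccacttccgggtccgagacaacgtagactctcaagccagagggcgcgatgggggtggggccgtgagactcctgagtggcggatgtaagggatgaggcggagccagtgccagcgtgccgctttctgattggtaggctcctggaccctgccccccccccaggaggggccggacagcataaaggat

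In Hspa5 the matching 19 bases, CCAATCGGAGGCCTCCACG (chr2:34772025-34772043, plus strand), lie 65 to 47 bases before the RefSeq start. They fall inside the first exon of the longer transcript Hspa5-201, so no longer stretch is shown. The windows of Sdf2l1, Pdia4 and Dnajb9 held no exact match to any of these motifs. That of Dnajb9 begins inside an annotated exon of the gene, so the sequence before its annotated start was not searched. Among 118 other listed pathway genes, 96 had a window and 6 of those held an ERSE or ERSE-II, namely Dnajb11, Dnajc3, Pdia6, Canx, Syvn1 and Derl3.

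None of the 10 genes differed between KO and WT marrow past the threshold of an adjusted p under 0.05. The count was 0 of 10, against 0.646% of all 14238 tested genes (92 genes; 0.478% higher and 0.169% lower in KO), by edgeR's quasi-likelihood test with adjustment over all genes. At an unadjusted p under 0.05 the count in this fit was also 0 of 10, against 11.5% of all genes (6.45% higher in KO). That count was not stable, at 4 of 10 with the sample number as a block, 2 with TPM values, 2 without KO library 1, and 1 with DESeq2 and 1 with no filter on low counts. With the block, WT library 4 did not bear on the fold changes, since no KO library has its number. At an adjusted p under 0.05 DESeq2 and limma voom with sample weights called 0 of 10. In none of the 10 did the KO and WT libraries separate without overlap, which they did in 12.9% of all genes (6.95% higher and 5.94% lower in KO). The fitted log2 fold changes, KO over WT, lay between -0.06 and 0.35 with a median of 0.16, beside -0.01 for all tested genes. In all, 8 lay above 0 and Herpud1 and Ddit3 below it, and these last 2 turned positive when TPM values were used. The largest upper bound of a 95% interval was 1.65-fold (Creld2) and the lowest lower bound 0.754-fold (Herpud1).

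**Figure D1:**
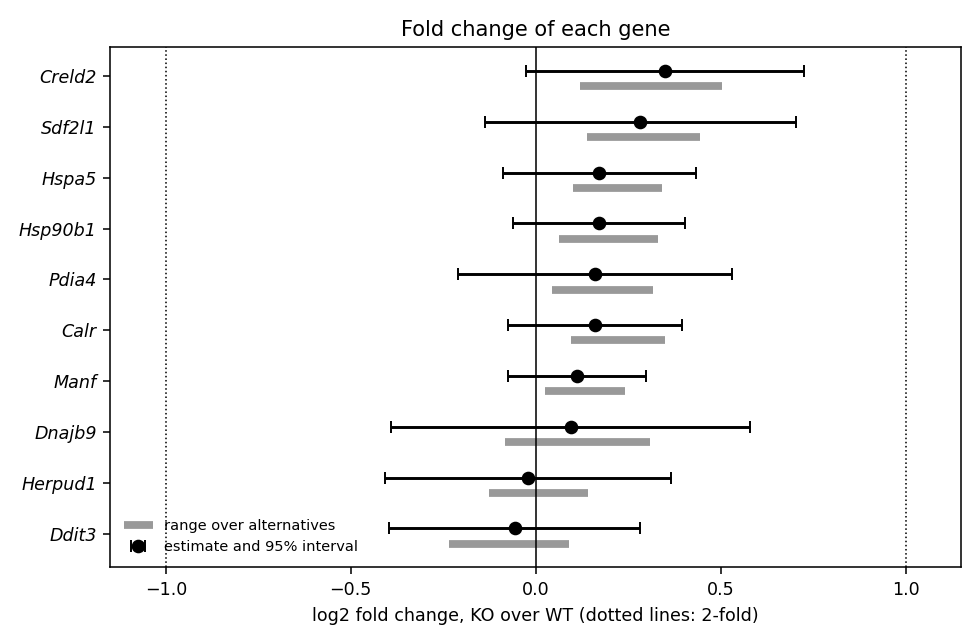
Fitted log2 fold change, KO over WT, of each of the 10 genes (points) with its 95% interval (bars) and, under it, the range over 19 alternative analyses (grey). Every interval crosses 0 and lies inside the dotted 2-fold lines, and the estimates run from -0.06 (Ddit3) to 0.35 (Creld2).

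Hspa5 encodes BiP, the Hsp70 chaperone of the ER lumen, which also holds the stress sensors inactive. It lies on chromosome 2 (34771970 to 34777547, plus strand; GENCODE M21 on GRCm38, as for all genes below). It was at 418, 452 and 493 CPM in KO libraries 1, 2 and 3 and at 341, 400, 407 and 466 CPM in WT libraries 1 to 4. WT library 4 stood above KO libraries 1 and 2, so the groups overlapped. KO averaged 455 ± 37.3 CPM (SD over n = 3 libraries) and WT 404 ± 51.0 CPM (SD over n = 4), which fitted as 0.17 ± 0.11 on the log2 scale (SE; adjusted p = 0.628, edgeR). The shares of its transcripts overlapped between the groups. Hspa5-202 took 86.4 to 87.0% in KO and 86.1 to 89.8% in WT, and the longer Hspa5-201 took 10.9 to 11.2% and 8.56 to 12.1%.

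Hsp90b1, the Hsp90 chaperone of the ER, lies on chromosome 10 (86690209 to 86705509, minus strand). It was at 461, 512 and 592 CPM in KO and at 467, 438, 447 and 501 CPM in WT. KO library 1 lay below WT libraries 1 and 4, while KO libraries 2 and 3 lay above all of WT. On the log2 scale KO over WT came to 0.17 ± 0.10 (SE; adjusted p = 0.581, edgeR). Its SD was 66.2 CPM over 3 KO libraries and 27.8 CPM over 4 WT libraries.

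Calr encodes calreticulin, a calcium-binding lectin that retains unfolded glycoproteins, on chromosome 8 (84841850 to 84846934, minus strand). Its levels were 586, 615 and 657 CPM in KO and 477, 572, 546 and 623 CPM in WT. Here WT library 4 lay above KO libraries 1 and 2. Its fitted log2 fold change was 0.16 ± 0.10 (SE; adjusted p = 0.617, edgeR). Transcript Calr-204, which keeps an intron (84842596 to 84844916), took 7.03 to 11.9% of the gene's reads in KO and 4.8 to 9.97% in WT, ranges that overlapped.

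Pdia4, a disulfide isomerase of the ER, lies on chromosome 6 (47796141 to 47813430, minus strand). It was at 70.9, 80.8 and 93.8 CPM in KO and at 54.4, 71.9, 79.6 and 86.9 CPM in WT. KO library 1 lay below 3 of the 4 WT libraries. KO over WT, the fitted log2 change was 0.16 ± 0.16 (SE; adjusted p = 0.768, edgeR).

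Creld2, an ER protein linked to disulfide exchange and induced by ER stress, lies on chromosome 15 (88819646 to 88826683, plus strand). It had the largest fitted fold change of the 10. It was at 32.9, 40.3 and 54.8 CPM in KO and at 32.5, 29.7, 34.3 and 37.5 CPM in WT. KO library 1 lay inside the WT range and KO library 3 far above it. KO averaged 42.7 ± 11.1 CPM (SD over n = 3 libraries) and WT 33.5 ± 3.29 CPM (SD over n = 4), which fitted as 0.35 ± 0.16 on the log2 scale (SE; 95% interval -0.03 to 0.72; adjusted p = 0.472, edgeR). Without KO library 3 the log2 fold change was 0.12, and without KO library 1 it was 0.50, with adjusted p between 0.248 and 0.704 over the 19 alternatives.

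Sdf2l1, a partner of BiP in the ER, lies on chromosome 16 (17130138 to 17132383, minus strand). It was at 29.9, 31.6 and 36.8 CPM in KO and at 18.2, 28.6, 27.8 and 33.1 CPM in WT. WT library 1 was the low one, at 0.609 of the mean of the other WT libraries. On the log2 scale KO over WT came to 0.28 ± 0.18 (SE; adjusted p = 0.623, edgeR), and it was 0.14 without WT library 1.

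Manf, a secreted trophic factor that binds BiP in the ER, lies on chromosome 9 (106838312 to 106891979, minus strand). It was at 115, 127 and 142 CPM in KO and at 117, 114, 122 and 120 CPM in WT. The 4 WT libraries differed little, with a coefficient of variation of 2.86%, against 10.7% over the 3 KO libraries. Its fitted log2 fold change was 0.11 ± 0.08 (SE; adjusted p = 0.663, edgeR). A total of 20.7 to 26.5% of its reads per library went to the short intron-retaining transcript Manf-205, and this share overlapped between the groups.

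Dnajb9, a J-domain cochaperone of BiP and a target of XBP1, lies on chromosome 12 (44205559 to 44210326, minus strand). Its levels of 21.3, 25.7 and 32.2 CPM in KO and 16.5, 24.8, 27.7 and 29.9 CPM in WT were the lowest per length among the 10. KO library 1 lay below 3 WT libraries. KO over WT, the fitted log2 change was 0.09 ± 0.21 (SE; adjusted p = 0.916, edgeR), and it changed sign without KO library 3 (-0.08) or without WT library 1 (-0.05).

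Herpud1 encodes an ER membrane protein of the degradation machinery, on chromosome 8 (94386438 to 94395377, plus strand). It was at 95.7, 101 and 114 CPM in KO and at 80.9, 92.8, 109 and 137 CPM in WT. It was the only gene of the 10 with its highest level in a WT library, WT library 4. On the log2 scale KO over WT came to -0.02 ± 0.17 (SE; adjusted p = 0.978, edgeR).

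Ddit3 encodes CHOP, a transcription factor of prolonged ER stress under ATF4, on chromosome 10 (127290774 to 127296288, plus strand). It was at 33.2, 26.5 and 21.04 CPM in KO and at 31.0, 25.6, 27.0 and 28.3 CPM in WT. The KO libraries held both its highest level (library 1) and its lowest (library 3). Its fitted log2 fold change was -0.06 ± 0.15 (SE; adjusted p = 0.931, edgeR), and without KO library 3 it was 0.09. A second, short gene entry of the same name (127290829 to 127293753), within the longer one, had 0 reads in all 7 libraries and was not used.

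**Figure D2:**
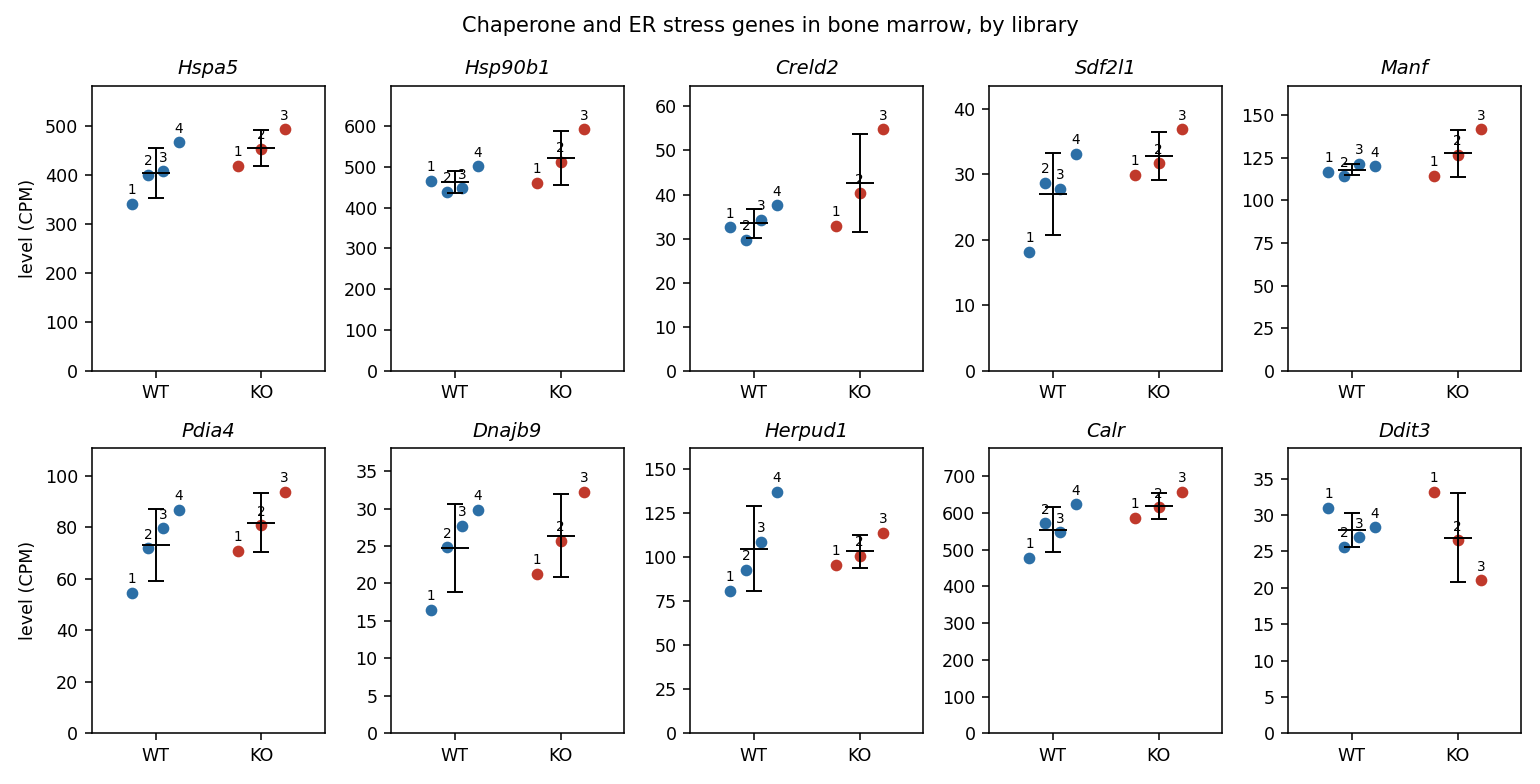
Level of each of the 10 genes in CPM for 4 WT and 3 KO libraries (points, numbered by library), with mean and SD (black), each axis starting at 0. The groups overlap in every panel, KO library 3 is the highest point for 8 genes, and Ddit3 shows KO library 3 as the lowest point.

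Per length, in TPM over the 7 libraries, calreticulin was the most abundant of the 10, at 320 ± 58.0 (SD, n = 7), above Manf in 7 of 7 libraries. Manf at 198 ± 33.6 TPM and Hspa5 at 196 ± 37.1 TPM did not differ beyond their spread, with Manf ahead in 3 of 7 libraries. Hsp90b1 followed at 181 ± 31.1 TPM, below Hspa5 in 6 of 7 libraries. Herpud1 was next, at 63.2 ± 12.8 TPM, and below it Ddit3 at 40.1 ± 5.89 TPM, which lay above Pdia4 in 6 of 7 libraries. The values of Pdia4 (33.8 ± 7.64 TPM), Sdf2l1 (32.6 ± 8.25 TPM) and Creld2 (30.3 ± 8.54 TPM) lay within each other's spread. Library by library, Pdia4 lay above Sdf2l1 in 6 of 7 and Sdf2l1 above Creld2 in 5 of 7. Dnajb9 was the least abundant, at 12.1 ± 3.22 TPM. The level of Manf includes its short transcript Manf-205, which adds to a value per length.

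The 9 genes other than Ddit3 shared a pattern across libraries, with both genotypes overlapping. Among the KO libraries, library 3 was the highest and library 1 the lowest for each of these 9, an arrangement seen in 25.2% of all tested genes. It was also seen in 11 of 16 oxidative folding genes, 7 of 12 ER cochaperones and related genes and 10 of 15 chaperones of the cytosol and mitochondria. Of all 117 other pathway genes 55 showed it, so it was not particular to the 9. KO library 3 was the highest of all 7 libraries for 8 of the 10 genes, against 21.2% of all tested genes. The same held for 8 of 12 ER cochaperones and related genes, 9 of 16 oxidative folding genes and 45 of the 117 other pathway genes. WT library 1 was the lowest of the 7 for 6 of the 10, against 23.7% of all tested genes. It was also the lowest for 8 of 16 oxidative folding genes, 8 of 9 monocyte markers and 37 of the 117. Neither trait was particular to the 10. The ratio of KO library 3 to KO library 1 ran from 1.12 (Calr) to 1.67 (Creld2) for the 9 and was 0.634 for Ddit3. The median deviation of the 10 from the WT mean, on the log2 scale, was -0.01, 0.15 and 0.33 in KO libraries 1, 2 and 3 and -0.22, -0.03, 0.04 and 0.20 in WT libraries 1 to 4. WT library 4 thus lay above KO libraries 1 and 2.

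**Figure D3:**
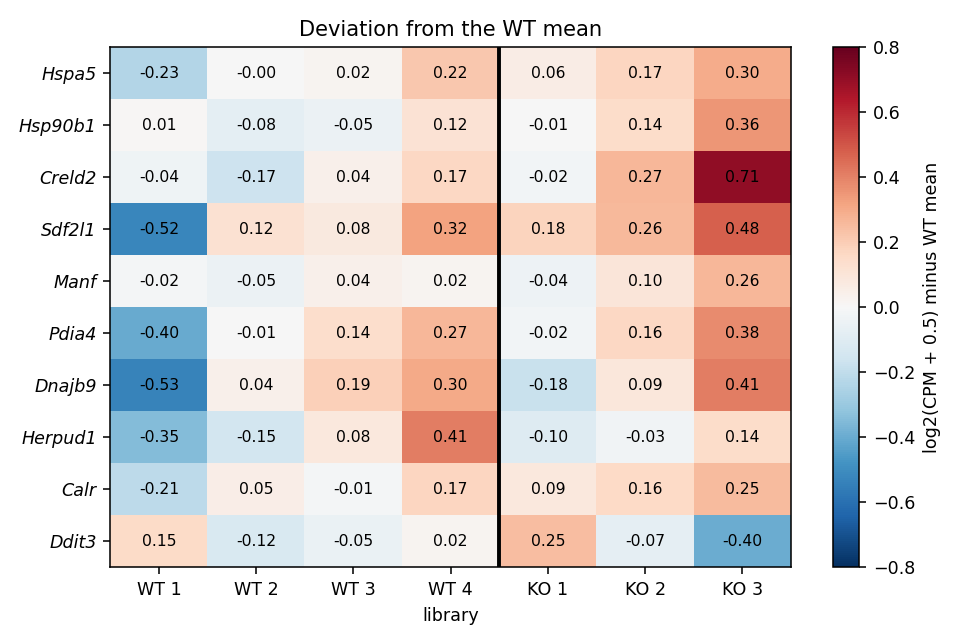
Deviation of each gene from its WT mean in each library, as log2(CPM + 0.5) minus the mean of 4 WT libraries (colour and printed value). KO library 3 is positive for 9 genes, up to 0.71 for Creld2, and negative for Ddit3 (-0.40), while WT library 1 is negative for 8 genes.

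Other values also differed by library, only in part in the same order. Among the KO libraries, skeletal muscle genes were lowest in library 1 and highest in library 3 for 8 of 8 listed genes, for example Acta1 at 9.72 and 1742 CPM. The summed level of 7 genes of neutrophil precursors was 3117 to 3710 CPM in KO. In WT libraries 1 to 4 it was 2229, 3369, 3054 and 3058 CPM. The summed level of 8 erythroid genes was highest in WT library 1 (145500 CPM, against 89090 to 106100 CPM in the other WT libraries). It was lowest in KO library 3 (70400 CPM, against 87170 and 93470 CPM in KO libraries 1 and 2). No gene of these 3 lists was untested for want of reads. The part of these differences in the chaperone pattern was not tested, and in bulk marrow fewer cells of a type and less RNA per cell cannot be told apart.

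Each member was set against the average of the other 9 across the 7 libraries, after its genotype mean was subtracted. As a description, with libraries sharing depth and composition, Pearson's r was 0.968 for Hspa5, 0.946 for Pdia4, 0.927 for Dnajb9, 0.915 for Herpud1, 0.882 for Calr and 0.845 for Sdf2l1. It was 0.723 for Creld2, 0.657 for Hsp90b1, 0.633 for Manf and -0.737 for Ddit3. For likeness, the 10 genes were averaged after scaling and set against 9376 other genes averaging 10 CPM or more. Over all 7 libraries the closest included Lmo4 (r = 0.977), Cbfb (0.976), Mcemp1 (0.9754), Dnajc3 (0.972), Hdc (0.971), Slc2a1 (0.969) and Ctsz (0.969). With genotype means subtracted, the 8 closest were Lrg1 (0.995), Cbfb (0.994), Cyb561a3 (0.989), Psmb8 (0.988), Safb (0.988), Faim (0.986), Itpk1 (0.985) and Ywhab (0.982). Dnajc3, a BiP cochaperone, was the single gene of the pathway lists among them. These values describe 7 libraries, and no p is given.

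Across the other genes of the pathway, 0 of 117 tested passed by edgeR's test, while 14 had an unadjusted p under 0.05 (11 higher and 3 lower in KO), a share near the 11.5% of all genes (6.45% higher). Their median log2 fold change was 0.05. Groups did not overlap for 16 of the 117 (10 higher, 6 lower), a share near the 12.9% of all genes. DESeq2 called 3 of them, Xbp1, Sel1l and Hspe1, against 2.84% of all genes, and voom with sample weights called Hspe1, against 2.14% of all genes.

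Among 12 sensors and transcription factors, 0 passed, with a median log2 fold change of 0.04. Xbp1, which drives the secretory programme, was at 145, 174 and 189 CPM in KO and at 97.6, 123, 129 and 133 CPM in WT, so that each KO library lay above each WT library. KO over WT, the fitted log2 change was 0.49 ± 0.13 (SE; adjusted p = 0.181, edgeR; 0.0171, DESeq2). Atf6 was at 54.6, 52.5 and 56.1 CPM in KO and at 44.3 to 48.9 CPM in WT, also without overlap (0.24 ± 0.06, SE; adjusted p = 0.166, edgeR). The spliced and unspliced forms of Xbp1 mRNA were not told apart here. Eif2ak3 and Atf4, named after their values were seen, were at -0.04 and -0.06.

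Cochaperones of the ER and related genes gave 0 of 12, with a median of 0.07. Hyou1, the exchange factor of BiP, was at 88.9, 103 and 116 CPM in KO and at 63.9, 86.0, 84.1 and 99.4 CPM in WT (0.30 ± 0.15, SE; adjusted p = 0.507, edgeR). Sil1, another exchange factor, was at 0.16. Oxidative folding enzymes and prolyl isomerases gave 0 of 16, with a median of 0.15, and 4 of them, all higher in KO, had an unadjusted p under 0.05, against 6.45% of all genes higher at that threshold. Prdx4, a peroxiredoxin of the ER, was at 36.7, 39.5 and 40.7 CPM in KO against 31.7 to 34.4 CPM in WT (0.25 ± 0.07, SE; adjusted p = 0.201, edgeR). Txndc5, a disulfide isomerase, was at 148, 182 and 177 CPM in KO against 91.1 to 143 CPM in WT (0.47 ± 0.15, SE; adjusted p = 0.272, edgeR). For these 2 enzymes the KO and WT libraries did not overlap.

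The calnexin cycle, which folds glycoproteins, gave 0 of 9, with a median of 0.13 and all 9 fitted values above 0. Lman1, a cargo receptor, and Uggt1, the glucosyltransferase that marks unfolded glycoproteins, were at 0.17 and 0.20. In ER-associated degradation 0 of 18 passed, with a median of 0.08. Sel1l, the adaptor of the ubiquitin ligase complex at the ER membrane, was at 84.7, 86.9 and 96.0 CPM in KO and at 56.2, 66.4, 73.6 and 74.2 CPM in WT, without overlap (0.40 ± 0.11, SE; adjusted p = 0.184, edgeR; 0.0317, DESeq2). Derl3, a derlin typical of secretory cells, was at 6.29, 9.47 and 10.95 CPM in KO and at 2.68, 3.68, 6.30 and 6.41 CPM in WT (0.90 ± 0.32, SE; adjusted p = 0.344, edgeR). Translocation genes gave 0 of 17, with a median of 0.05, and Sec61g and Srpr were at -0.16 and 0.14.

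Targets of the PERK and ATF4 arm, to which Ddit3 belongs, gave 0 of 18 with a median near 0 (-0.002). Trib3, a pseudokinase under ATF4 and CHOP, was at 11.9, 6.44 and 1.49 CPM in KO libraries 1, 2 and 3 and at 1.41 to 3.30 CPM in WT (1.595 ± 0.595, SE; adjusted p = 0.361, edgeR). Its KO libraries stood in the order of Ddit3, with library 1 highest and library 3 lowest. The same order held for 6 of the 18 targets and for 21.3% of all tested genes, while the opposite order, with library 3 highest and library 1 lowest, held for 7 of the 18 and for 25.2% of all. Asns, which makes asparagine, and Ppp1r15a, which reverses the PERK signal, were among the 6, at 176, 169 and 99.7 CPM and at 600, 513 and 342 CPM in KO libraries 1, 2 and 3. They were chosen after their values were seen. Atf3, a stress-induced factor, was at 2.79 to 3.85 CPM in KO and 3.92 to 4.75 CPM in WT (-0.40 ± 0.17, SE; adjusted p = 0.434, edgeR). Ern2 of this list had 0 reads in every library.

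Chaperones of the cytosol and mitochondria, set beside those of the ER, gave 0 of 15 with a median of -0.08, and 11 of the 15 fitted values lay below 0. Hspe1, the mitochondrial cochaperonin, was at 59.8, 61.2 and 68.0 CPM in KO and at 72.9 to 82.3 CPM in WT, without overlap (-0.28 ± 0.08, SE; adjusted p = 0.193, edgeR; 0.0326, DESeq2; 0.0413, voom). Dnajb1, a cochaperone of the heat shock response, was at 87.1 to 106 CPM in KO and 107 to 117 CPM in WT (-0.18 ± 0.08, SE; adjusted p = 0.448, edgeR). Hspb1, a small heat shock protein, was at -0.60 with all libraries and passed when KO library 3 was left out (-2.04; adjusted p = 0.0124, edgeR). That library held 11.6 CPM of it against 1.69 and 2.11 CPM in the other KO libraries and 6.25 to 8.58 CPM in WT.

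**Figure D4:**
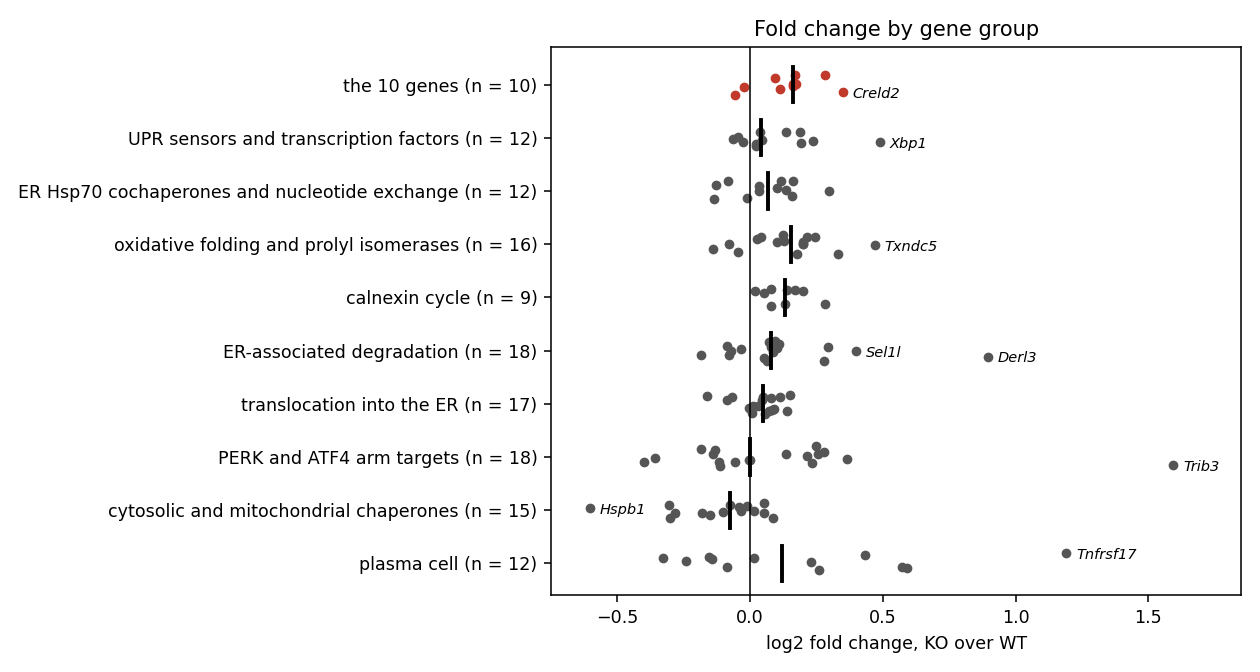
Fitted log2 fold change, KO over WT, of the 10 genes (red), of the other listed pathway genes and of plasma cell markers (grey), 1 point per gene, with list medians as black bars. Of the 117 other pathway genes 0 passed the test, and list medians lie between -0.08 and 0.16.

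Plasma cell genes were given because these cells are rich in ER chaperones. Of 12 listed markers 0 passed, and the median log2 fold change was 0.12. Jchain, which joins antibody polymers, was at 484, 613 and 488 CPM in KO and at 281, 352, 459 and 328 CPM in WT, without overlap (0.57 ± 0.17, SE; adjusted p = 0.227, edgeR). Prdm1, the transcription factor of the plasma cell fate, was at 5.57 to 7.14 CPM in KO and 3.54 to 5.19 CPM in WT, without overlap (0.59; adjusted p = 0.204, edgeR). Tnfrsf17, a survival receptor of plasma cells, was at 1.17 to 2.44 CPM in KO and 0.643 to 1.31 CPM in WT (1.19; adjusted p = 0.240, edgeR). Cd38, a surface enzyme of plasma and other blood cells, was lower in each KO library (22.2 to 26.9 CPM) than in each WT library (27.7 to 32.8 CPM), at -0.24 (adjusted p = 0.413, edgeR). Eaf2 was at 2.72 to 2.98 CPM in KO and 1.55 to 2.36 CPM in WT, also without overlap (0.43; adjusted p = 0.443, edgeR). In all, 3 of the 12 lay higher and 1 lower in KO without overlap, against 6.95% and 5.94% of all genes. Sdc1, Mzb1 and Tnfrsf13b were at 0.26, 0.23 and 0.01, and Ell2, Pou2af1, Tent5c and Irf4 at -0.15, -0.33, -0.15 and -0.09. The summed level of the 12 overlapped between the groups, at 1172 to 1493 CPM in KO and 1188 to 1293 CPM in WT, of which Tent5c made up 423 to 705 CPM in KO and 555 to 783 CPM in WT.

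The share of immunoglobulin reads was larger in each KO library than in each WT library, and the levels of each of the 10 genes overlapped between the groups. Markers of the B lineage other than plasma cells, 13 genes with 0 past the test, summed to 197 to 317 CPM in KO and 412 to 662 CPM in WT. All 13 fitted log2 fold changes lay below 0, with a median of -0.95 and a smallest adjusted p of 0.0684 (edgeR). For 7 of the 13 each KO library lay below each WT library, against 5.94% of all genes. The part of plasma cell and B lineage RNA in the chaperone levels was not tested.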

How the data were processed

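Per the labels' protocols, marrow mRNA was made into strand-specific libraries and read on a DNBSEQ instrument. The submitters' processing notes list Salmon 1.7.0, FastQC 0.11.9, DESeq2 and GRCm38.p6, and the columns are those of Salmon's transcript output, per the file headers. Salmon's options and annotation are not given in the sources used here. Deposited by the authors were estimated counts per transcript, without normalization, beside TPM values scaled for effective length, and the effective lengths, per the file headers.

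Transcripts were joined to GENCODE M21 genes by identifier without version. A total of 569 of 116546 had no gene and held at most 0.0662% of a library's reads. Counts were summed per gene and rounded. edgeR's filterByExpr left 14238 genes, scaled with TMM factors of 0.918 to 1.06. KO was compared with WT by the quasi-likelihood test of edgeR 4.0.16 in R 4.3.3, over all 7 libraries, with Benjamini-Hochberg adjustment over all genes, and the steps were checked on simulated data. SE is the absolute log2 fold change over the square root of F, and 95% intervals use the test's degrees of freedom. Alternatives were RLE scaling, other filters, DESeq2 1.42.0, limma 3.58.1 (voom with sample weights, or log2(TPM + 0.1) and log2(TPM + 1)), a length offset, no immunoglobulin genes, protein-coding transcripts only, a threshold of 0.10, the sample number as a block, and each library left out.

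The members and lists were chosen with earlier results of these data known. Named genes were the members, of each pathway list those past the threshold or else the 2 with the smallest p, the plasma cell markers, the 2 most abundant of other marker lists where a value bears on the members, and the 8 genes most like the members by each of 2 measures, of which 1 is not reported here. Others are marked as chosen after their values were seen, apart from the genes with a promoter match or with a call by another tool.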

Additional observations from a re-analysis of the deposited data

Results flagged for a closer look

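Among 54 genes examined for a WT library far from the other 3, 2 stood out, and chance alone marks about 1 in 20. Tnfrsf17, a plasma cell receptor, was at 1.31 CPM in WT library 3 and at 0.643 to 0.679 CPM in the other WT libraries. Ly6c2, a marker of monocytes, was at 211 CPM in WT library 1 and at 349 to 360 CPM in the others. None of the 10 chaperone and stress genes stood out in this way.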

How the results depend on the processing

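The count of members past the threshold was 0 of 10 in all 19 alternatives. Their median log2 fold change was 0.09 to 0.32 in alternatives that kept all libraries and 0.08 to 0.23 with 1 library left out, lowest without KO library 3. With TPM values the median of all genes was 0.13 (pseudocount 0.1) or 0.10 (pseudocount 1) in place of -0.01, and the members' 0.32 is to be read against that. Signs changed for 3 members. Dnajb9 was at -0.069 with voom weights, -0.082 without KO library 3 and -0.05 without WT library 1 (range -0.082 to 0.228 with a library left out). Ddit3 was at 0.0098 with voom weights, 0.065 and 0.064 with TPM at pseudocounts 0.1 and 1, and 0.0889 without KO library 3 (range -0.235 to 0.0889). Herpud1 was at 0.11 with TPM at either pseudocount, 0.14 with the replicate block, 0.03 without KO library 1 and 0.13 without WT library 4 (range -0.126 to 0.134).

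Of the other pathway genes, DESeq2 called 3, voom 1 and the fit without KO library 3 also 1 (range 0 to 1 with a library left out), and the cause was not tested. Over all genes the count of 92 (68 higher, 24 lower) was 405 (259 and 146) with DESeq2, 305 (183 and 122) with voom, 55 (44 and 11) with the length offset, 49 (43 and 6) and 50 (45 and 5) with TPM, and 198 at a threshold of 0.10. With fewer samples it lay between 17 and 65, at 42 without KO library 1, 22 without KO library 2, 17 without WT library 2, 24 without WT library 3 and 51 without WT library 4. With the sample number as a replicate block it was 21, and WT library 4, without a KO library of its number, did not bear on the fold changes. The numbers are those of the sample titles, and the deposited files number the WT libraries otherwise. The labels name no batch, and by the titles the deviations of samples of the same number correlated at 0.12, -0.04 and -0.27. These few values cannot show whether such samples share a batch. Members had 308 reads or more per library, and counting error was not separated from the spread between libraries.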
